A study of Danio rerio with 15 samples.

Results

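The genes described here carry out or feed the oxidation of fatty acids. They were chosen by symbol, as 37 enzymes, transporters and organelle proteins of a list drawn up with earlier results of these data known, and all 37 were found among the 36351 entries of the authors' deposited table, each with 1 entry. By the textbook location of the protein, 24 are mitochondrial, 6 are peroxisomal and 7 act in more than 1 compartment or in the cytosol. The animals were wild-type AB zebrafish, taken whole at 100 hours post fertilization (hpf) in pools of 8 to 10. From 96 to 100 hpf the water of the controls held the solvent dimethyl sulfoxide (DMSO, 0.01% v/v). That of the exposed animals held 50 nM of tris(4-chlorophenyl)methanol (TCPMOH), a chlorinated contaminant, with 5 libraries in each group. No DMSO content is listed for the TCPMOH libraries. The 5 libraries exposed to the related compound TCPM were not analysed here. The question the comparison addresses is how a 4-hour exposure late in embryonic development changes transcript levels.

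Mitochondria take up long fatty acids as carnitine esters and shorten them in repeated turns of dehydrogenation, hydration, a second dehydrogenation and thiolysis, passing electrons to the respiratory chain. Peroxisomes run a similar cycle with their own enzymes, begin it with oxidases that make hydrogen peroxide, and handle very long, branched and some unsaturated chains. In fish larvae that still live on yolk, lipid is a main fuel, and liver, heart, slow muscle and intestine are tissues known for using or handling it.

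The authors' deposited table holds 1 row of statistics per gene and no value per library, so the values below are the fold change, its standard error (SE) and the test, not levels in each pool. A gene was tested where the table gives an adjusted p, which was so for 19257 genes, and it was called where that value was under 0.05 (DESeq2 Wald test, Benjamini-Hochberg adjustment over all tested genes). The table does not name the numerator of the fold change. A negative value is read here as lower with TCPMOH, and every direction would swap under the other reading. Among all tested genes the authors' deposited table calls 516 (2.68%), 370 of them lower (1.92%) and 146 higher (0.758%). With a constant of 0.0477 log2 units added to each fold change, which makes the summed values of the groups equal, 218 were lower and 355 higher, so the balance of directions rests on the centring. The constant comes from summed normalized counts, so abundant transcripts weigh most in it. As deposited the median of all tested genes was -0.0016, and after the shift it was 0.046. The labels speak of 3 experimental replicates without assigning pools to them, and the p-values measure only the spread between these pools. The base mean, the mean of normalized counts, had a median of 416 over the tested genes and is not divided by transcript length, so it is given as the depth behind a value and not to rank genes.

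A single oxidation gene was called after TCPMOH exposure, and it was peroxisomal. The gene decr2, which encodes the peroxisomal 2,4-dienoyl-CoA reductase needed for chains with double bonds, fell by 0.34 on the log2 scale in the authors' deposited table (SE 0.0898; DESeq2 adjusted p = 0.00905), which is 1.27-fold lower at a base mean of 344. Of the 36 tested members 1 was lower and 0 were higher, a share of 2.78% called. That share is close to the 2.68% called among all tested genes, so the count alone does not set these genes apart. The remaining 35 tested members had adjusted p-values from 0.0633 to 0.997 by DESeq2 in the authors' deposited table. At an unadjusted p under 0.05, 5 members were negative, namely decr2, ehhadh, acsl1a, eci2 and etfa, and 0 were positive. These 5 make up 13.9% of the tested members, against 13.0% of all tested genes at that level, of which 7.62% were negative and 5.43% positive. This split of 5 to 0 depends on the centring. After the shift to equal sums decr2 and ehhadh stood at -0.30 and -0.20. The genes acsl1a, eci2 and etfa moved towards 0, to -0.097, -0.096 and -0.076. On the positive side cpt1ab, crata and acadvl moved away from 0, to 0.21, 0.15 and 0.14. Of these genes only decr2 was called after the shift.

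**Figure D1:**
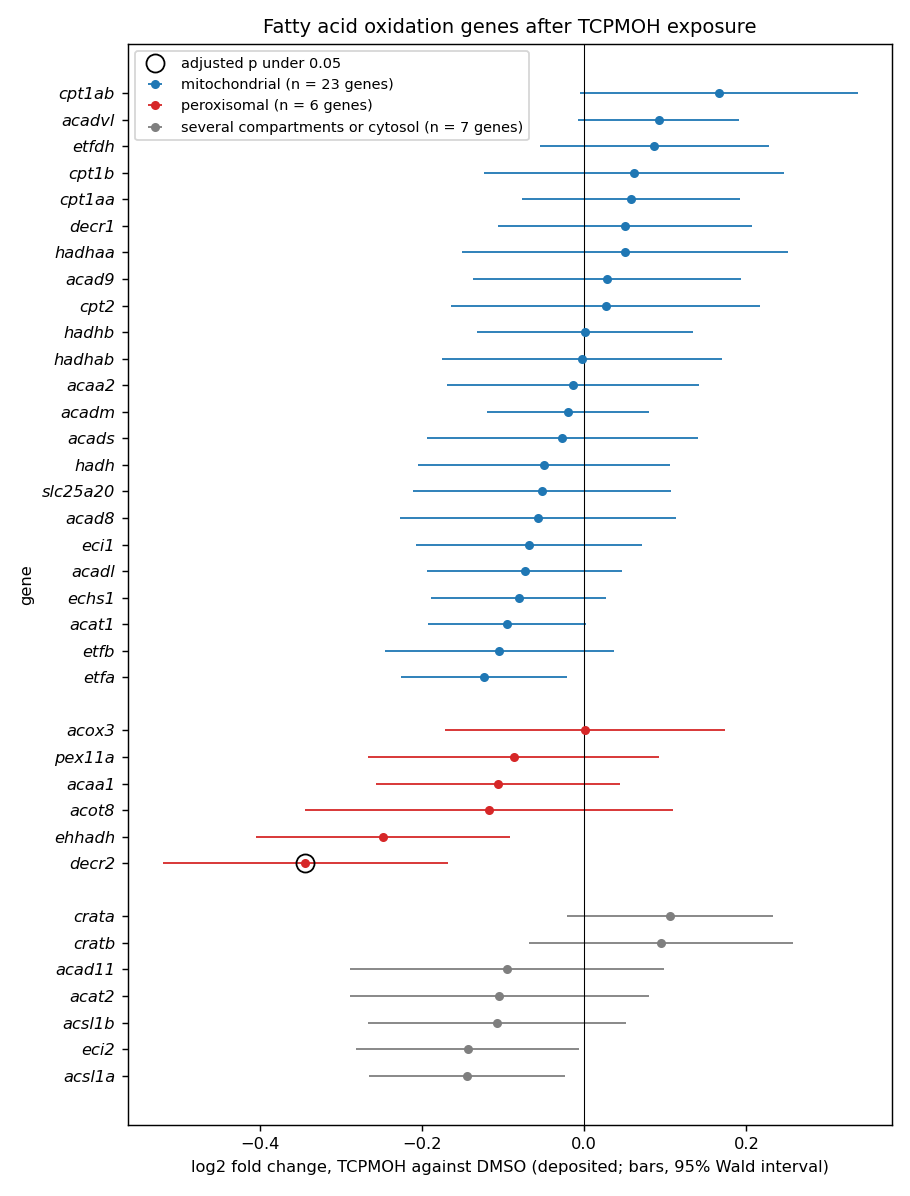
Log2 fold change of the 36 tested members (x axis, TCPMOH against DMSO, with 95% Wald intervals from the deposited SE), by gene (y axis) and coloured by compartment; the open circle marks the called gene. Mitochondrial genes lie on both sides of 0, from -0.12 for etfa to 0.17 for cpt1ab, while 5 of 6 peroxisomal genes are negative, with decr2 at -0.34.

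The oxidase gene acox3, which starts the cycle on branched chains, was the peroxisomal member closest to 0, at 0.0011 in the authors' deposited table (SE 0.0882; DESeq2 adjusted p = 0.997). The gene ehhadh, which encodes the bifunctional enzyme for the hydration and second oxidation steps, stood at -0.25 in the authors' deposited table (SE 0.0799; base mean 368; DESeq2 adjusted p = 0.0633). Its 95% Wald interval ran from -0.41 to -0.092, and the gene missed the threshold after adjustment over all genes. The thiolase gene acaa1, for the last step of each turn, stood at -0.11 in the authors' deposited table (SE 0.0766; base mean 699; DESeq2 adjusted p = 0.590). The acyl-CoA thioesterase gene acot8, which ends oxidation by releasing the shortened acid, stood at -0.12 in the authors' deposited table (SE 0.116; adjusted p = 0.717 by DESeq2). Its base mean of 88.1 was the lowest of all tested members and its SE the highest. The gene pex11a, for a membrane protein of peroxisome division, stood at -0.087 in the authors' deposited table (SE 0.0918; DESeq2 adjusted p = 0.736). Only decr2 was called among the 6, and acox3 was the 1 peroxisomal member that was not negative.

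In the coordinates of the authors' deposited table, decr2 lies on chromosome 24 from 37709185 to 37721739 on the plus strand, and ehhadh on chromosome 9 from 12428226 to 12443861 on the minus strand. No other entry of the table overlaps either gene. The sources used here name no genome build for these coordinates.

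The call of decr2 depended on the null distribution used. Over all tested genes the Wald statistics had a robust spread of 1.30, where the test assumes 1 for unchanged genes. Changed and unchanged genes were not separated in that spread. With the statistics divided by that spread, the adjusted p of decr2 was 0.229 and 0 members were called (recomputed from the DESeq2 statistics). Across the other settings that give the gene a value, its adjusted p lay between 0.00905 and 0.0389. Its fold change ranged from -0.41, with the inferred shrinkage of the fold undone, to -0.30, after the shift to equal sums. Undoing the shrinkage scales the fold and its SE alike, so that setting keeps the deposited adjusted p and could not change the call.

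**Figure D2:**
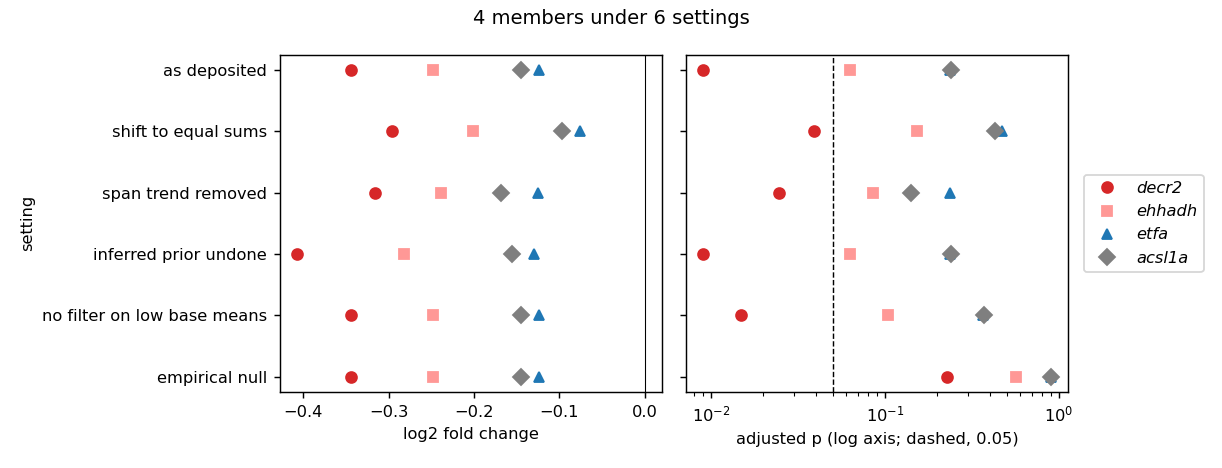
Log2 fold change (left x axis) and adjusted p (right x axis, log scale, with the 0.05 threshold dashed) of decr2, ehhadh, etfa and acsl1a under 6 settings (y axis). The gene decr2 stays left of the threshold in 5 settings and moves to 0.229 under the empirical null, and the other 3 genes are right of it throughout. The 5 include the deposited result and the undone prior, which keeps the deposited adjusted p by construction.

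Mitochondrial and peroxisomal members differed in where their values centred. The 23 tested mitochondrial members had a median log2 fold change of -0.014, with 13 negative and 10 positive in the authors' deposited table. The 6 peroxisomal members had a median of -0.11, with 5 negative and 1 positive. Without decr2 the peroxisomal median was -0.11, and without both decr2 and ehhadh it was -0.097, the latter over 4 genes. All tested genes had a median of -0.0016, with 50.6% negative in the authors' deposited table. After the shift to equal sums the mitochondrial median was 0.034, with 9 of 23 negative, and the peroxisomal median was -0.064, with 5 of 6 negative. All tested genes then had a median of 0.046, with 6687 of 19257 negative. The sign of the mitochondrial median thus depends on the centring. With only 6 peroxisomal genes and no value per library, the difference between the compartments was not tested and is given as a description. The compartments also differed in depth and in gene span. The median base mean was 1531 for mitochondrial and 356 for peroxisomal members, and the median span from start to end was 18766 bp and 10466 bp. With the trend of the statistic on span removed, the medians were -0.0067 and -0.085.

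Set side by side by reaction, the peroxisomal enzyme had the more negative value at each of the 4 stages compared, entry, hydration with the second oxidation, thiolysis and double bonds, when the medians of the 2 routes were compared. This view adds peroxisomal genes outside the 37 and places eci2 on the peroxisomal side, and the stages were drawn up after the values were seen. For double bonds, decr1, the mitochondrial 2,4-dienoyl-CoA reductase gene, stood at 0.050 in the authors' deposited table (SE 0.0798; DESeq2 adjusted p = 0.835), opposite decr2. The 95% Wald interval of decr1 ran from -0.11 to 0.21 and that of decr2 from -0.52 to -0.17. The difference between the pair was not tested, since decr2 stands out as the called member. For hydration and the second oxidation, the peroxisomal genes ehhadh and hsd17b4, the D-bifunctional enzyme gene, had a median of -0.20 against -0.026 for echs1, hadh, hadhaa and hadhab. By itself hsd17b4 stood at -0.16 in the authors' deposited table (SE 0.0663; DESeq2 adjusted p = 0.217). For thiolysis the medians were -0.11 for acaa1, scp2a and scp2b, and -0.014 for hadhb, acaa2 and acat1. Among these scp2a, whose product includes a peroxisomal thiolase in mammals, stood at -0.20 in the authors' deposited table (SE 0.0881; DESeq2 adjusted p = 0.248). For entry of the acyl groups, the 3 tested peroxisomal ABC transporter genes had a median of -0.10 and the 5 carnitine shuttle genes one of 0.058. Besides decr2, no gene of these stages was called by the DESeq2 test of the authors' deposited table.

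**Figure D3:**
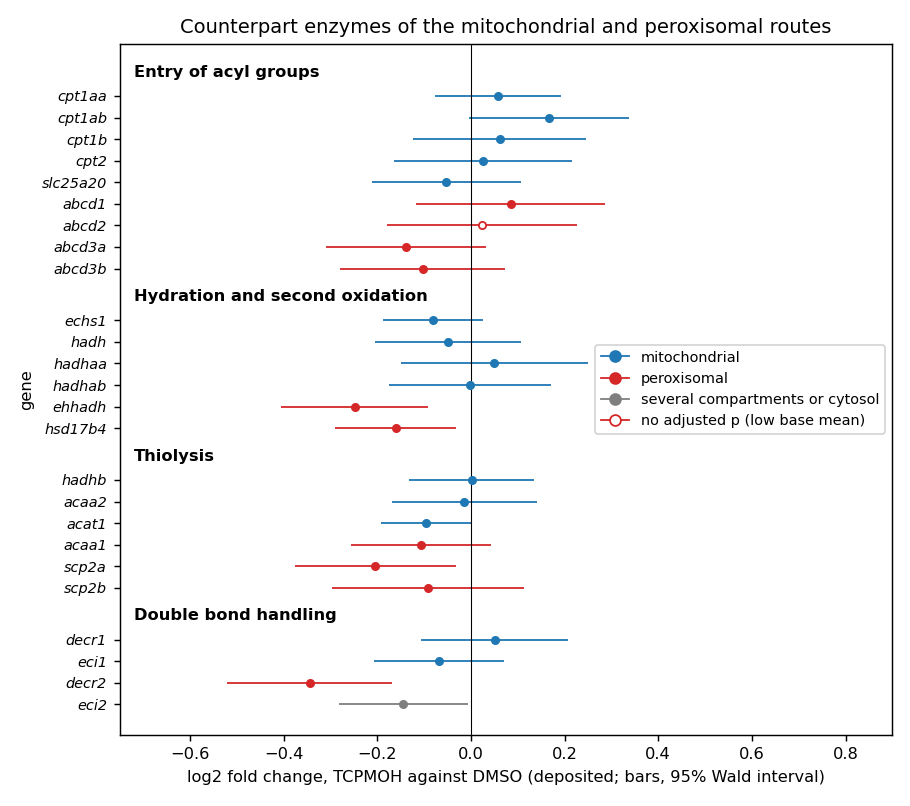
Log2 fold change with 95% Wald interval (x axis) of mitochondrial, peroxisomal and shared genes (y axis), arranged by stage of fatty acid oxidation; abcd2 has no adjusted p because of its low base mean. At the stage of double bond handling, decr1 lies at 0.050 and decr2 at -0.34.

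The carnitine shuttle, which carries long acyl chains into mitochondria, gave mostly positive values, none of them called. Carnitine palmitoyltransferase 1 makes the acylcarnitine at the outer membrane, is the main control point of the pathway and is blocked by malonyl-CoA. Its liver-type gene cpt1ab had the highest value of all members, 0.17 in the authors' deposited table (SE 0.0873; base mean 2351; DESeq2 adjusted p = 0.402). Its paralog cpt1aa stood at 0.058 in the authors' deposited table (SE 0.0686; DESeq2 adjusted p = 0.773). The muscle-type gene cpt1b stood at 0.062 in the authors' deposited table (SE 0.0943; DESeq2 adjusted p = 0.830). The inner-membrane enzyme gene cpt2 was at 0.026, and the carnitine-acylcarnitine carrier gene slc25a20 at -0.053, in the authors' deposited table. The 3 transferase 1 genes thus had the same sign, and the 95% Wald interval of each included 0.

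The acyl-CoA dehydrogenases, which take the first electrons from chains of different length, centred near 0. The very-long-chain gene acadvl stood at 0.092 in the authors' deposited table (SE 0.0506; base mean 5923; DESeq2 adjusted p = 0.432), the deepest of the members. The values were -0.074 for the long-chain gene acadl, -0.020 for the medium-chain gene acadm and -0.027 for the short-chain gene acads in the authors' deposited table. Their relatives acad8, for valine breakdown, and acad9, also an assembly factor of respiratory complex I, stood at -0.057 and 0.028 in the authors' deposited table. The precision was highest for acadm, whose 95% Wald interval ran from -0.12 to 0.080, and for acadvl, from -0.0072 to 0.19. The isoleucine-pathway gene acadsb had a base mean of 6.69 and no adjusted p, and is the 1 member that was not tested. A second entry of the authors' deposited table, annotated as short/branched chain-like and lying on an unplaced scaffold, had a base mean of 578 and a value of -0.030 (DESeq2 adjusted p = 0.947). That entry is no member and was looked up after the values were seen, and how reads were divided between the copies is uncertain.

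The electron transfer flavoprotein receives electrons from these dehydrogenases, and its own dehydrogenase hands them to ubiquinone. The alpha subunit gene etfa stood at -0.12 in the authors' deposited table (SE 0.0521; base mean 3863; DESeq2 adjusted p = 0.236), the most negative of the mitochondrial members. The beta subunit gene etfb stood at -0.10 in the authors' deposited table (SE 0.0722; DESeq2 adjusted p = 0.570). The value of etfdh, for the dehydrogenase, was 0.086 in the authors' deposited table (SE 0.0720; DESeq2 adjusted p = 0.658), so the subunits and their partner had opposite signs without a call. The etfdh entry overlaps the entry cplx2 on the same strand over 32336 bp, its whole span, and cplx2 had a base mean of 10132 against 1557. The overlap is one of start to end coordinates. Whether exons are shared was not examined, so it is uncertain whether the reads of etfdh are affected.

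The later steps of the mitochondrial cycle lay within 0.1 log2 units of 0 in every gene. The trifunctional protein, which joins 3 of the steps on long chains, is encoded by the alpha subunit paralogs hadhaa and hadhab and the beta subunit gene hadhb. They stood at 0.050, -0.0027 and 0.0014 in the authors' deposited table (SEs 0.102, 0.0881 and 0.0680). The hydratase gene echs1 was at -0.081, the short-chain hydroxyacyl-CoA dehydrogenase gene hadh at -0.049 and the thiolase gene acaa2 at -0.014 in the authors' deposited table. For acat1, whose thiolase also serves ketone bodies and isoleucine, the value was -0.095 in the authors' deposited table (SE 0.0498; base mean 2956; DESeq2 adjusted p = 0.400). The auxiliary isomerase gene eci1 stood at -0.068 in the authors' deposited table (SE 0.0712; DESeq2 adjusted p = 0.734). Its whole span, 7562 bp, lies within the entries znf1124 and znf1004 on the same strand, and whether exons are shared was not examined. Of the 23 tested mitochondrial members, 22 had a 95% Wald interval inside -0.3 to 0.3, and 21 did with the inferred shrinkage undone, so changes beyond 1.23-fold lay outside the interval of most of them. The intervals take the deposited SE as it is. With Wald statistics that had a spread of 1.30 over all tested genes, where 1 is assumed for unchanged ones, they may be too narrow. The coordinates of hadhaa and hadhb overlap by 478 bp on opposite strands.

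Among members that act in several compartments or in the cytosol, paralogs had the same sign. The 2 long-chain acyl-CoA synthetase genes, whose products activate fatty acids before either route, were both negative and neither was called. In the authors' deposited table acsl1a stood at -0.14 (SE 0.0616; base mean 780; DESeq2 adjusted p = 0.239) and acsl1b at -0.11 (SE 0.0813; base mean 1507; adjusted p = 0.615). The carnitine acetyltransferase genes, for export of acetyl groups as acetylcarnitine, were both positive. In the authors' deposited table crata stood at 0.11 (SE 0.0647; base mean 1145; DESeq2 adjusted p = 0.502) and cratb at 0.094 (SE 0.0829; adjusted p = 0.677). The isomerase gene eci2, active on unsaturated chains in both organelles, stood at -0.14 in the authors' deposited table (SE 0.0700; base mean 1391; DESeq2 adjusted p = 0.341). The dehydrogenase gene acad11 was at -0.095 and the cytosolic acetoacetyl-CoA thiolase gene acat2 at -0.10 in the authors' deposited table. The median of these 7 was -0.10, with 5 negative and 2 positive.

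The other members given with full statistics are placed as follows, in the coordinates of the authors' deposited table. The peroxisomal acaa1 is on chromosome 24 from 20325312 to 20332460, also the chromosome of decr2 and of eci2, which runs from 2956352 to 2972040. The gene acot8 is on chromosome 11 from 1512571 to 1520946. Chromosome 25 carries cpt1ab from 23591990 to 23648040 and etfa from 32755485 to 32787247. The gene acadvl is on chromosome 7 from 20298320 to 20335655, and acat1 on chromosome 10 from 38663917 to 38698966. The synthetase genes are on chromosome 1 from 17537322 to 17587630 (acsl1a) and on chromosome 14 from 937194 to 970853 (acsl1b). The gene crata is on chromosome 5 from 32815745 to 32833358.

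Of the 37 members, 19 share coordinates with at least 1 other entry, 8 of them on the same strand and 13 on the opposite strand. These counts rest on start and end positions as annotated. The 1 entry sinhcafl covers both cpt1aa, which starts at 48805338 on chromosome 7, and acox3, which starts at 61760948, so its annotated span is unusually long. The library kit keeps strand, but no source used here says whether the counting did. The entry of acot8 lies wholly within atp2b2, which is on the opposite strand and had a base mean of 8093 against 88.1 for acot8.

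The rest of the pathway was described with 9 lists of genes that regulate, supply or neighbour oxidation, 123 different tested genes outside the members. The authors' deposited table calls 2 of these higher and 2 lower (DESeq2 Wald test), 3.25% against 2.68% of all tested genes. Of the 123 genes, 81 were negative (65.9%, against 50.6% of all tested genes). After the shift to equal sums 67 were negative, against 6687 of all 19257 tested genes. At an unadjusted p under 0.05, 18 of the 123 were negative and 4 positive, against 1468 and 1045 of all 19257 tested genes. Such splits, here and in the lists below, follow the deposited centring. They were not recounted after the shift to equal sums, which raises every value by 0.0477. The kinase gene pdk4, whose product switches off pyruvate dehydrogenase and so spares glucose, rose by 0.27 in the authors' deposited table (SE 0.0764; DESeq2 adjusted p = 0.0241). Retinoid X receptor gene rxraa, for the partner with which peroxisome proliferator-activated receptors (PPARs) bind DNA, rose by 0.21 in the authors' deposited table (SE 0.0592; DESeq2 adjusted p = 0.0182). The gene slc27a6, of the fatty acid transport protein family, stood lower at -0.25 in the authors' deposited table (SE 0.0682; DESeq2 adjusted p = 0.0140). Lower too was acaca, at -0.25 in the authors' deposited table (SE 0.0769; DESeq2 adjusted p = 0.0421), which encodes an acetyl-CoA carboxylase that makes malonyl-CoA. All 4 calls were lost when the statistics were divided by their spread, both lower calls after the shift to equal sums, and both higher calls with the span trend removed. The call of acaca was also lost when genes of low base mean were not filtered out.

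List by list, the 18 tested peroxisomal oxidation genes outside the members had a median of -0.071, with 13 negative and 0 called by DESeq2 in the authors' deposited table. At an unadjusted p under 0.05, 3 of these were negative, namely abcd4, hsd17b4 and scp2a, and 0 positive. Over all tested genes 7.62% were negative and 5.43% positive at that level. Whether the 3 stay under it after the shift to equal sums was not examined. The most negative was abcd4, at -0.23 in the authors' deposited table (SE 0.0823; DESeq2 adjusted p = 0.124). It was listed for its transporter family, that of the peroxisomal acyl-CoA carriers, but its own product is not known to act in peroxisomal oxidation. The counts and medians of this list, alone and joined with the members, include abcd4. Together with the 6 peroxisomal members, 18 of 24 were negative with a median of -0.089, and 17 were negative with a median of -0.041 after the shift to equal sums. Peroxins, which import proteins and build the organelle, had a median of -0.026 over 16 tested genes, with 11 negative and 0 called in the authors' deposited table by DESeq2, and 0 passed an unadjusted p of 0.05. The smallest p was that of pex10, part of the import machinery, at -0.15 in the authors' deposited table (SE 0.111; DESeq2 adjusted p = 0.614). With equal sums 7 of the 16 were negative and the median was 0.022. Over all tested genes the median was then 0.046, with 65.3% positive.

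The PPAR, PGC-1 and ERR regulators of oxidation had 10 negative and 10 positive values among 20, with rxraa as the only call, and a median of -0.0087, which became 0.039 with 8 negative after the shift to equal sums. In the authors' deposited table the coactivator gene ppargc1b was at -0.24 (SE 0.0830; DESeq2 adjusted p = 0.0922), and it was called lower with the span trend removed (recomputed adjusted p = 0.0309 from the DESeq2 statistics). The receptor gene pparaa stood at -0.24 in the authors' deposited table (SE 0.0980; DESeq2 adjusted p = 0.203), and pparab at -0.052, neither called. These 3 genes were picked out after their values were seen. Known PPAR targets outside oxidation had 7 negative and 6 positive among 13, with pdk4 called. Of these 13, 4 were negative and 2 positive at an unadjusted p under 0.05. Ketone body and propionyl-CoA genes were negative in 10 of 10, between -0.11 and -0.025, with 0 called in the authors' deposited table by DESeq2 and 0 at an unadjusted p of 0.05. With equal sums 65.3% of all tested genes were positive, and 7 of these 10 were negative. The smallest p among them was that of pccb, for a propionyl-CoA carboxylase subunit, at -0.095 in the authors' deposited table (SE 0.0582; DESeq2 adjusted p = 0.502).

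Fatty acid uptake and activation had 13 of 21 tested genes negative, a median of -0.071 and the single call of slc27a6. Of these 21, 4 were negative and 1 positive at an unadjusted p under 0.05. Lipolysis genes had 7 of 8 negative and a median of -0.16, with 0 called in the authors' deposited table by DESeq2 and 2 at an unadjusted p under 0.05, both negative. The lipid droplet gene plin6 led the latter list at -0.31 in the authors' deposited table (SE 0.0986; DESeq2 adjusted p = 0.0604), and it too was called lower with the span trend removed (recomputed adjusted p = 0.0415). No other setting took plin6 under 0.05. Recomputed from the DESeq2 statistics, its adjusted p was 0.127 after the shift to equal sums, 0.099 without the filter and 0.558 under the empirical null. For malonyl-CoA and fatty acid synthesis, 6 of 10 were negative, with a median of -0.038 and acaca as the call. After the shift to equal sums 5 of 10 were negative with a median of 0.0094, against 0.046 over all tested genes. The acaca paralog acacb, picked after its value was seen, had the opposite sign, at 0.16 in the authors' deposited table (SE 0.0887; DESeq2 adjusted p = 0.420). In that list fasn was listed at 0 and could not be compared. Carnitine synthesis and uptake genes had 5 of 8 negative, a median of -0.062 and 0 called, with 2 negative at an unadjusted p under 0.05 in the authors' deposited table by DESeq2. The smallest p among them was that of shmt1, at -0.15 in the authors' deposited table (SE 0.0731; DESeq2 adjusted p = 0.321).

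**Figure D4:**
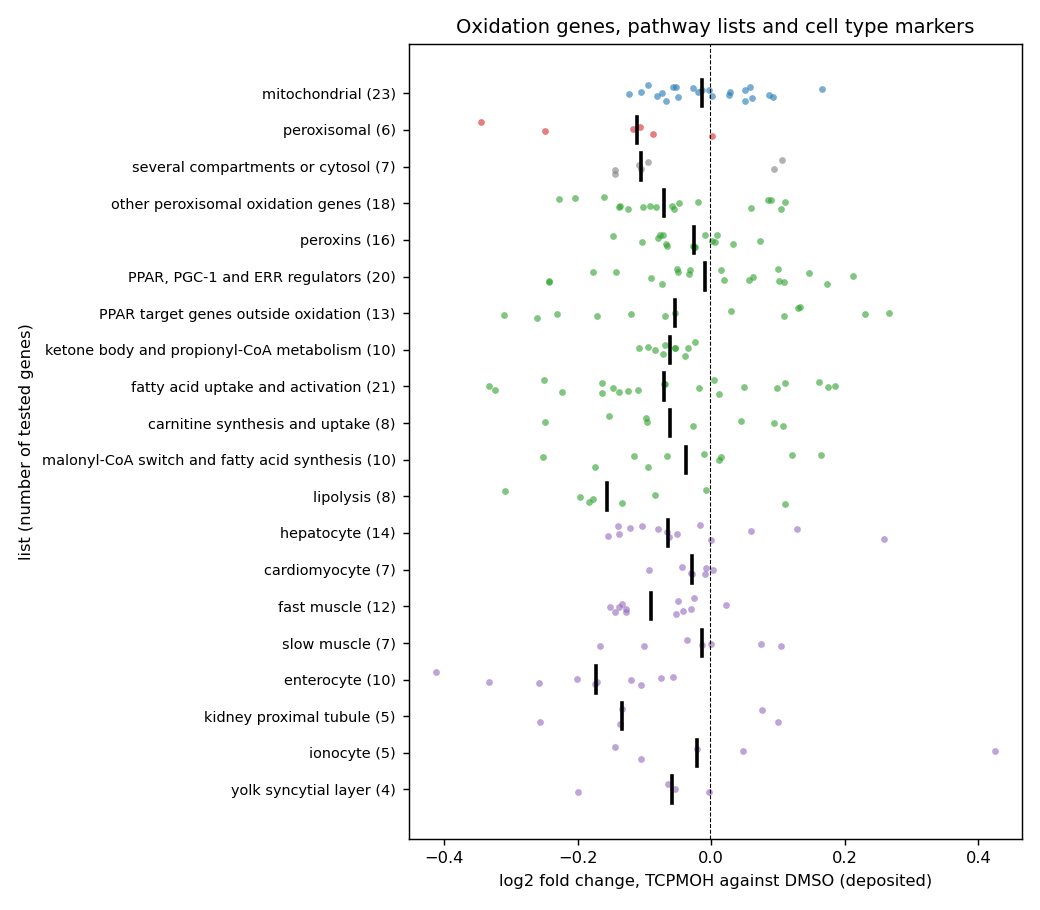
Log2 fold change (x axis) of the tested genes of each group or list (y axis, number of tested genes in parentheses), 1 point per gene with random vertical scatter; black bars are medians and the dashed line is the median of all tested genes. Medians run from -0.17 for enterocyte markers to -0.0087 for the PPAR, PGC-1 and ERR regulators.

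Whole animals were sequenced, so fewer cells of a type and less RNA per cell cannot be told apart. Markers of 8 cell types were examined beside the oxidation genes, and of 68 marker genes 67 were in the table, none with a base mean of 0. Enterocyte markers were negative in 10 of 10, with a median of -0.17, and apoa4a, a lipid-carrying apolipoprotein gene, was called at -0.41 in the authors' deposited table (SE 0.113; DESeq2 adjusted p = 0.0162). The fatty acid binding protein gene fabp2 of the same list, picked after its value was seen, stood at -0.33 in the authors' deposited table (SE 0.105; DESeq2 adjusted p = 0.0563), and it was called lower when the adjustment ran over base means of at least 1000 (recomputed adjusted p = 0.0380). No other setting took fabp2 under 0.05. Recomputed from the DESeq2 statistics, its adjusted p was 0.117 after the shift to equal sums, 0.152 with the span trend removed and 0.536 under the empirical null. The part of enterocytes in the peroxisomal values, which have a median of -0.11, was not tested. Hepatocyte markers had a median of -0.065 with 11 of 14 negative, fast muscle markers one of -0.090 with 11 of 12, and kidney proximal tubule markers one of -0.13 with 3 of 5. Medians were -0.014 for slow muscle (4 of 7 negative), -0.029 for cardiomyocytes (6 of 7), -0.059 for the yolk syncytial layer (4 of 4) and -0.021 for ionocytes (3 of 5). After the shift to equal sums 3 of these medians turned positive, at 0.034 for slow muscle (2 of 7 negative), 0.019 for cardiomyocytes (1 of 7) and 0.026 for ionocytes (2 of 5). The median over all tested genes also turned positive, at 0.046. Medians of the other lists stayed negative after the shift. They were -0.12 for enterocytes (10 of 10 negative), -0.086 for kidney proximal tubule (3 of 5) and -0.042 for fast muscle (8 of 12). For hepatocytes the shifted median was -0.017 (9 of 14), and for the yolk syncytial layer -0.011 (3 of 4). In the 7 lists other than that of enterocytes the only call was the ionocyte calcium channel gene trpv6, higher at 0.42 in the authors' deposited table (SE 0.110; DESeq2 adjusted p = 0.00851). The smallest p of the other 6 lists belonged to hpxa at 0.26, tnnt2a at -0.093, ckmb at -0.15, myoz2b at -0.17, pdzk1 at -0.26 and ttr at -0.20 in the authors' deposited table, with DESeq2 adjusted p-values of 0.219, 0.728, 0.524, 0.210, 0.295 and 0.420. The calls of apoa4a and trpv6 were not followed through the other settings. Their Wald statistics, -3.64 and 3.85, lay near the -3.83 of decr2, whose call was lost under the empirical null. The part of these cell types in the values of the oxidation genes was not tested.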

How the data were processed

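The submitters' processing notes name FastQC, cutadapt, STAR, featureCounts and DESeq2, without versions. Per the file headers, genes come from GTF version 4.3.2 and carry identifiers of Ensembl release 99. The authors deposited 1 table for DMSO and TCPMOH: a base mean (the mean of normalized counts, a nonnegative signal), a log2 fold change, its SE, a Wald statistic (a score) and p-values. The deposited score is the fold change over its SE, and recomputing the Benjamini-Hochberg adjustment over 19257 genes gave values within 5.17e-06 of the deposited adjusted p-values. The table has 0 columns named for a library, so depth per library is unknown and no count model was run. All 37 member identifiers matched the gene name table.

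The deposited folds appear shrunken: no SE exceeds 0.124, as with a normal prior of standard deviation 0.248, and no source used here states it. Wald intervals are the fold ± 1.96 SE (95%). The settings tried were a shift to equal sums, a span trend (medians in 50 bins) removed, the prior undone, no filter or a base mean of at least 1000, an empirical null and an adjusted p under 0.10. Calculations were tested on simulated data. Members, compartments and lists were chosen with earlier results of these data known. Every member is named; of a list, the called genes or else the one with the smallest p, and others are said to be picked later or are shown by stage or cell type. No protein or promoter sequences were used here. The first oxidation stage is not compared between the routes. Software comprised matplotlib 3.10.9, scipy 1.17.1, numpy 2.4.6 and pandas 2.3.3 under Python 3.11.15.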

Additional observations from a re-analysis of the deposited data

How the results depend on the processing

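No paired analysis was possible because the table holds no value per library; for the same reason leaving out replicates, edgeR's TMM and a low-count filter were not run. The count of lower members, 1 as deposited, was 1 after the shift to equal sums, with the span trend removed and without a filter on low base means. It was 2 at an adjusted p under 0.10, with ehhadh added, 0 under the empirical null, and 0 where only base means of 1000 or more were kept, a set that leaves out decr2 and every peroxisomal member. The count of higher members was 0 in each of these settings. Sign changes occurred in 6 uncalled members. After the shift acadm stood at 0.028, acads at 0.021, hadhab at 0.045 and acaa2 at 0.034, and with the span trend removed hadhb stood at -0.0066 and acox3 at -0.016. The mitochondrial median ranged from -0.035 to 0.034 and the peroxisomal one from -0.15 to -0.064, including when genes of several compartments were counted with either. Settings for the pathway lists were chosen after seeing the data. Of their genes 2 were lower as deposited, 0 after the shift, 1 without the filter, 4 with the span trend removed (ppargc1b and plin6 added) and 0 under the empirical null. The 2 higher genes became 0 with the span trend removed, 0 under the empirical null and 1 at a base mean of at least 1000, a set that leaves out rxraa. All tested genes called lower and higher numbered 93 and 28 under the empirical null, 157 and 46 of 4381 at a base mean of at least 1000. The lack of values per library limits precision to the deposited SEs, from 0.0498 to 0.116 for tested members.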

Other observations

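A mitochondrial-like 3-ketoacyl-CoA thiolase entry on an unplaced scaffold, which shares its function but not its symbol with acaa2, had a log2 fold change of -0.13 in the authors' deposited table (SE 0.0905; base mean 757; DESeq2 adjusted p = 0.571). It was looked up after the values were seen. The uncoupling protein genes ucp2 and ucp3, of the PPAR target list, had values in the authors' deposited table of -0.23 (SE 0.0944; DESeq2 adjusted p = 0.212) and -0.26 (SE 0.116; adjusted p = 0.273), and the pyruvate dehydrogenase kinase gene pdk2a at 0.23 (SE 0.0998; adjusted p = 0.253). In the same list the fatty acid binding protein gene fabp1b.1 was more negative than ucp2 and ucp3, at -0.31 in the authors' deposited table (SE 0.105; DESeq2 adjusted p = 0.0892). These genes were picked after their values were seen, and none was called at an adjusted p under 0.05.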
